A study of Rattus norvegicus with 31 samples.

Results

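The question here was whether the difference in CA3 gene expression between aged rats with preserved and with impaired memory depends on the task the rats had just been trained on. The measure is the interaction of phenotype and task, taken for each probeset as AU-S minus AI-S, less AU-NS minus AI-NS. A probeset is a group of short probes on the Affymetrix rat array that together report 1 transcript. A positive interaction means that AU stood higher relative to AI after spatial training than after non-spatial training, and a negative one the reverse. All 31 arrays of the series entered, with 8 AU-S and 8 AI-S rats trained on the spatial task, 8 AU-NS and 7 AI-NS rats trained on the non-spatial task, and 1 array per rat. The groups were taken from the sample labels. The interaction was measured in all 16204 probesets of the deposited table. A single gene was named for 12242 of them, and these cover 9037 genes.

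All rats were aged male Long-Evans rats, and no group was young or untrained. AU rats (aged unimpaired) and AI rats (aged impaired) had been separated by their learning index in an earlier water maze test, so the phenotype was observed and not assigned. In the spatial task (S) the rats swam to a visible platform that stayed in place among extramaze cues, whereas in the non-spatial task (NS) the platform was moved between trials and the cues were taken away. CA3 was dissected from both hemispheres and pooled within each rat after a probe trial that followed training. The values are the authors' gcRMA values on a log2 scale, so that a difference of 1 unit is a doubling, and arrays give no counts from which a depth could be stated. In tissue of this kind, fewer cells of a type and less RNA per cell cannot be told apart.

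CA3 pyramidal neurons receive mossy fibre input from granule cells of the dentate gyrus and are densely connected with each other, and the subfield is known for the rapid encoding of places and episodes. In hippocampal neurons, a new experience sets off a wave of transcription that begins with the immediate early genes, such as Fos, Arc and Egr1, and goes on to genes of synapses, signalling and metabolism. An interaction of phenotype and task would be seen in genes whose response to the learning of a place differs between AU and AI rats.

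No probeset passed the threshold for the interaction (limma, Benjamini-Hochberg adjusted p under 0.1, 0 of 16204, 0%). The smallest adjusted p was 0.9999. At an unadjusted p under 0.05 there were 396 probesets (2.44%), of which 189 (1.17%) had a positive and 207 (1.28%) a negative interaction. The band of the same width from 0.95 up held 888 probesets (5.48%), so small p-values were fewer than an even spread gives. The reason was not tested. Under an unadjusted p of 0.01 there were 51, and 1 was under 0.001, a probeset of Mx2. With the SAM statistic and 100 relabellings of the tasks within each phenotype, that 1 probeset passed, with a q-value of 0.03, and the next in rank, of Sync, had a q-value of 0.88. Without the AI-NS array numbered 3 the number at an unadjusted p under 0.05 was 724, with 0 called. That array had a mean of 9.93 over the dentate granule cell markers, which was the highest of the AI-NS arrays. The AI-S arrays numbered 7 and 4 had higher means, at 10.09 and 10.03. Whether the marker mean bears on the number of probesets was not tested.

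For most probesets the interaction was bounded within a 1.5-fold change, which is 0.585 log2 units. The median interaction over all probesets was -0.0034 log2 units, and the 5th and 95th percentiles were -0.23 and 0.21. The standard error had a median of 0.12. The 95% interval lay wholly within a 1.5-fold change for 13954 probesets (86.1%) and within a 2-fold change for 15785 (97.4%). The estimate itself was beyond 1.5-fold for 127 probesets and beyond 2-fold for 28. The 1.5-fold bound is wide beside the AU minus AI difference. In the 787 probesets called higher in AU over both tasks (below), the median difference was 0.26 after S and 0.29 after NS training. A difference present after only 1 task could thus lie within the bound. The interval extended 0.25 log2 units to either side of the estimate at the median, and an estimate of that size has an unadjusted p near 0.05, well short of the adjusted threshold, so that larger differences between the tasks could also go uncalled with this number of rats.

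In the 24 genes with the smallest interaction p, the AU minus AI difference had one sign after S training and the other after NS training. Among all 396 probesets at an unadjusted p under 0.05, 343 (86.6%) had differences of opposite sign after S and NS training, against 34.2% of all 16204 probesets. These values describe what a large interaction looks like and follow from how the probesets were taken. Of the 24 genes, 12 had a positive interaction and 12 a negative one, and 17 were measured at the brightest probeset of the gene.

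**Figure D1:**
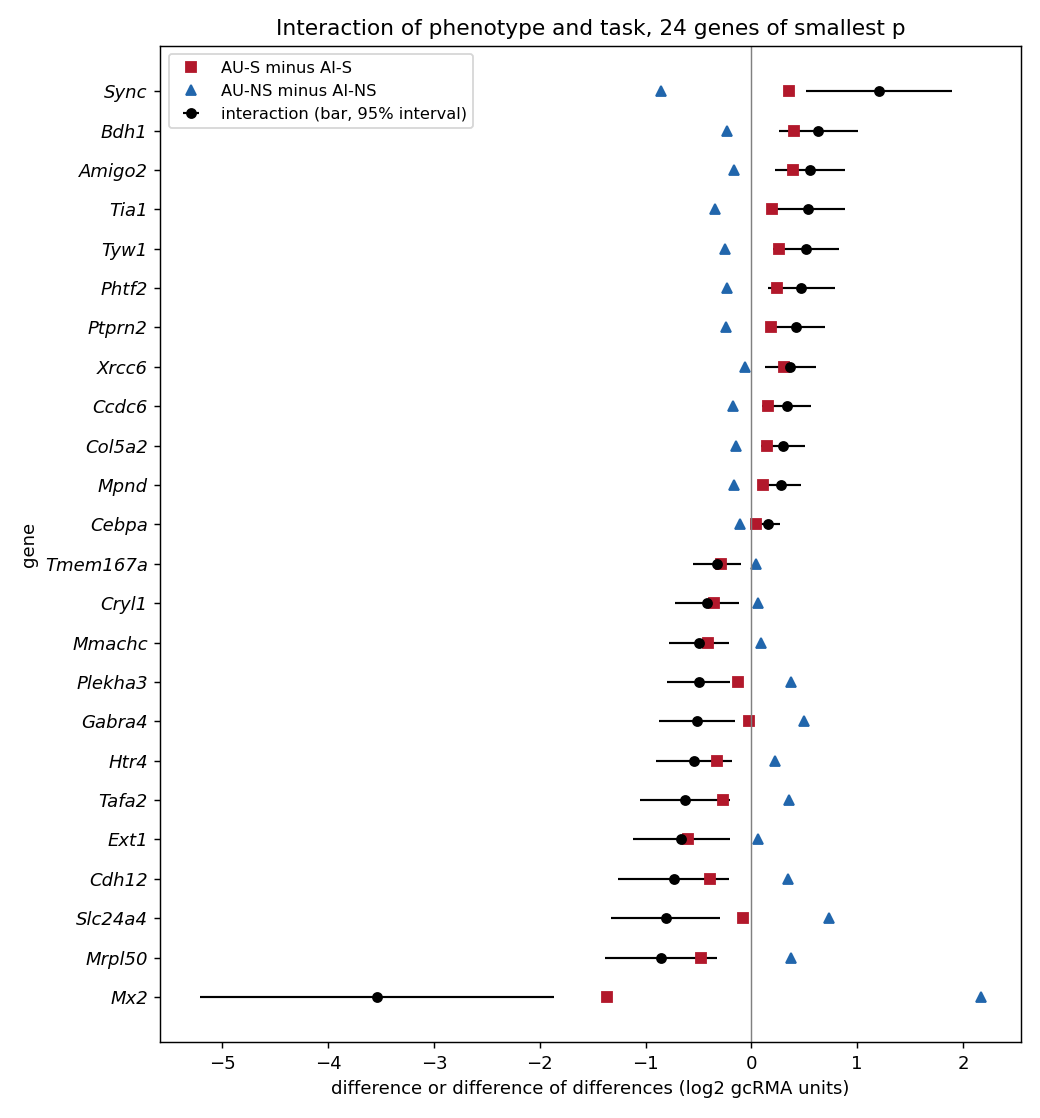
The 24 genes with the smallest interaction p, 12 positive (top) and 12 negative (bottom). The horizontal axis is in log2 gcRMA units, black points are the interaction with its 95% interval, red squares are AU-S minus AI-S and blue triangles are AU-NS minus AI-NS. Sync and Mx2 have the largest interactions of the genes shown, at 1.21 and -3.54.

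Mx2 is an interferon-induced GTPase of the dynamin family. At the probeset with the smallest p, the lowest, median and highest values were 3.05, 4.27 and 6.20 in AU-S rats, 3.83, 5.85 and 7.28 in AI-S rats, 3.90, 6.67 and 8.12 in AU-NS rats, and 3.59, 3.89 and 4.39 in AI-NS rats. In the study's methods, 4 log2 units is the level under which values were left out as too dim. Under it at this probeset were 2 of 8 AU-S, 2 of 8 AI-S, 1 of 8 AU-NS and 6 of 7 AI-NS values, so the AI-NS level is not well bounded and the sizes that follow rest in part on values below the limit. All AI-NS rats were low, AI-S and AU-NS rats were spread over several log2 units, and the groups overlapped within each task. The AU minus AI difference was -1.37 (SE 0.57) after S training and 2.17 (SE 0.59) after NS training, with an interaction of -3.54 (SE 0.82, unadjusted p = 0.000156, limma). The gene has another, brighter probeset, and there the interaction was 0.86 (SE 0.40, unadjusted p = 0.0391, limma), of the opposite sign. At the brighter probeset, AU-S rats had a median of 6.85 and AI-S rats 7.05, while AU-NS rats had 5.86 and AI-NS rats 7.09. The probesets of Mx2 thus gave opposite orders of AU-NS and AI-NS. With each array left out in turn, the interaction at the dimmer probeset stayed between -3.85 and -3.25.

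Of the genes with a positive interaction, Sync, which encodes the intermediate filament protein syncoilin, had the smallest p. Its lowest, median and highest values were 8.80, 9.73 and 10.34 in AU-S rats, 8.68, 9.50 and 10.18 in AI-S rats, 8.48, 8.78 and 10.15 in AU-NS rats, and 9.59, 9.75 and 10.42 in AI-NS rats. AU-NS rats were the low group, with 1 of 8 above the AI-NS mean. The difference was 0.35 (SE 0.23) after S training and -0.85 (SE 0.24) after NS training, and the interaction was 1.21 (SE 0.34, unadjusted p = 0.00119, limma), a 2.31-fold ratio between the tasks. The brighter probeset of Sync had an interaction of -0.16 (SE 0.32, unadjusted p = 0.61, limma), of the opposite sign.

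Bdh1 encodes the mitochondrial enzyme that interconverts the ketone bodies acetoacetate and beta-hydroxybutyrate. It had 7.68, 8.11 and 8.39 (lowest, median and highest) in AU-S rats, 7.29, 7.59 and 8.10 in AI-S rats, 7.20, 7.63 and 8.00 in AU-NS rats, and 7.60, 7.89 and 8.19 in AI-NS rats. All 8 AU-S rats were above the AI-S mean, and 3 of 8 AU-NS rats were above the AI-NS mean. The interaction was 0.63 (SE 0.18, 95% interval 0.26 to 1.01).

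Amigo2, a neuronal adhesion molecule that marks CA2 pyramidal cells in the mouse, had 9.67, 10.07 and 10.30 in AU-S rats, 9.17, 9.67 and 10.03 in AI-S rats, 9.50, 9.76 and 9.95 in AU-NS rats, and 9.52, 9.82 and 10.23 in AI-NS rats. AU-S was the highest group, and all 8 of its rats were above the AI-S mean. The interaction was 0.56 (SE 0.16). The 4 other CA2 markers measured lay on both sides of 0. Rgs14, a regulator of G protein signalling, had 0.17 (SE 0.11), Pcp4, a calmodulin-binding protein, had -0.13 (SE 0.20), Necab2 had -0.08 (SE 0.10) and Ntf3, which encodes neurotrophin 3, had -0.32 (SE 0.34).

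The remaining genes with a positive interaction ran between 0.16 for Cebpa, a leucine zipper transcription factor, and 0.53 for Tia1, an RNA-binding protein of stress granules. Between these were Tyw1 (0.51, SE 0.15), an enzyme of tRNA modification, Phtf2 (0.47, SE 0.16), Ptprn2 (0.43, SE 0.13), a phosphatase-like protein of dense-core vesicles, Xrcc6 (0.37, SE 0.12), the Ku70 subunit of the DNA end-joining machinery, Ccdc6 (0.33, SE 0.11), Col5a2 (0.30, SE 0.10), a chain of type V collagen, and Mpnd (0.28, SE 0.09). These genes exceeded the AI-S mean in 6 to 8 of 8 AU-S rats and the AI-NS mean in 0 to 2 of 8 AU-NS rats. Col5a2 has another, brighter probeset, with 0.20 (SE 0.09, unadjusted p = 0.031, limma).

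Among genes with a negative interaction, Gabra4 encodes the alpha 4 subunit of the GABA-A receptor, found mostly in receptors outside synapses. It had 8.28, 8.50 and 8.89 in AU-S rats, 8.23, 8.49 and 9.01 in AI-S rats, 8.63, 8.96 and 9.19 in AU-NS rats, and 8.01, 8.40 and 8.84 in AI-NS rats. The AU-NS rats were high, and all 8 lay above the AI-NS mean, whereas the groups trained on S covered the same range. The difference was -0.02 (SE 0.12) after S training and 0.49 (SE 0.13) after NS training, and the interaction was -0.51 (SE 0.18, unadjusted p = 0.00658, limma).

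Slc24a4, a potassium-dependent sodium-calcium exchanger, had a like order. Its lowest, median and highest values were 5.44, 6.34 and 6.62 in AU-S rats, 5.80, 6.30 and 6.89 in AI-S rats, 6.23, 6.45 and 7.33 in AU-NS rats, and 5.62, 5.85 and 6.25 in AI-NS rats. AU-NS rats were high and AI-NS rats low, and the ranges met only at their ends. The difference was -0.08 (SE 0.18) after S training and 0.73 (SE 0.18) after NS training, with an interaction of -0.81 (SE 0.25). The other calcium pumps and exchangers measured had interactions from -0.07 to 0.14, and their median with Slc24a4 included was -0.02 over 9 genes.

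Htr4 encodes a serotonin receptor that raises cyclic AMP. It had 7.38, 7.70 and 8.21 in AU-S rats, 7.72, 8.08 and 8.58 in AI-S rats, 7.87, 8.02 and 8.43 in AU-NS rats, and 7.70, 7.82 and 8.19 in AI-NS rats. AU-S rats were low, with 2 of 8 above the AI-S mean, and 7 of 8 AU-NS rats were above the AI-NS mean. The interaction was -0.54 (SE 0.18). Cdh12, a cadherin, had -0.74 (SE 0.26), and Tafa2, a small secreted protein of the nervous system, had -0.63 (SE 0.21), against -0.22 (SE 0.14) at its brightest probeset.

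Mmachc, which processes vitamin B12 in the cytosol, had 6.85, 7.38 and 7.62 in AU-S rats, 7.49, 7.75 and 7.95 in AI-S rats, 7.52, 7.67 and 8.01 in AU-NS rats, and 7.39, 7.60 and 8.08 in AI-NS rats. AU-S was the low group, and the other groups covered the same range. The interaction was -0.50 (SE 0.14). Mrpl50, a protein of the mitochondrial ribosome, had medians of 6.81 in AU-S rats, 7.17 in AI-S rats, 7.08 in AU-NS rats and 6.78 in AI-NS rats, with an interaction of -0.85 (SE 0.26). Ext1, which polymerises heparan sulfate, had -0.66 (SE 0.23), Plekha3, a lipid-binding protein of the Golgi, -0.50 (SE 0.15), Cryl1, a sugar dehydrogenase, -0.42 (SE 0.15), and Tmem167a -0.33 (SE 0.11). The brightest probesets had smaller estimates, at -0.08 (SE 0.17, unadjusted p = 0.619, limma) for Ext1, -0.09 (SE 0.12, unadjusted p = 0.436, limma) for Plekha3 and -0.11 (SE 0.09) for Tmem167a. For Mmachc, Ext1, Cryl1 and Tmem167a, 0 of 8 AU-S rats exceeded the mean of AI-S rats.

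**Figure D2:**
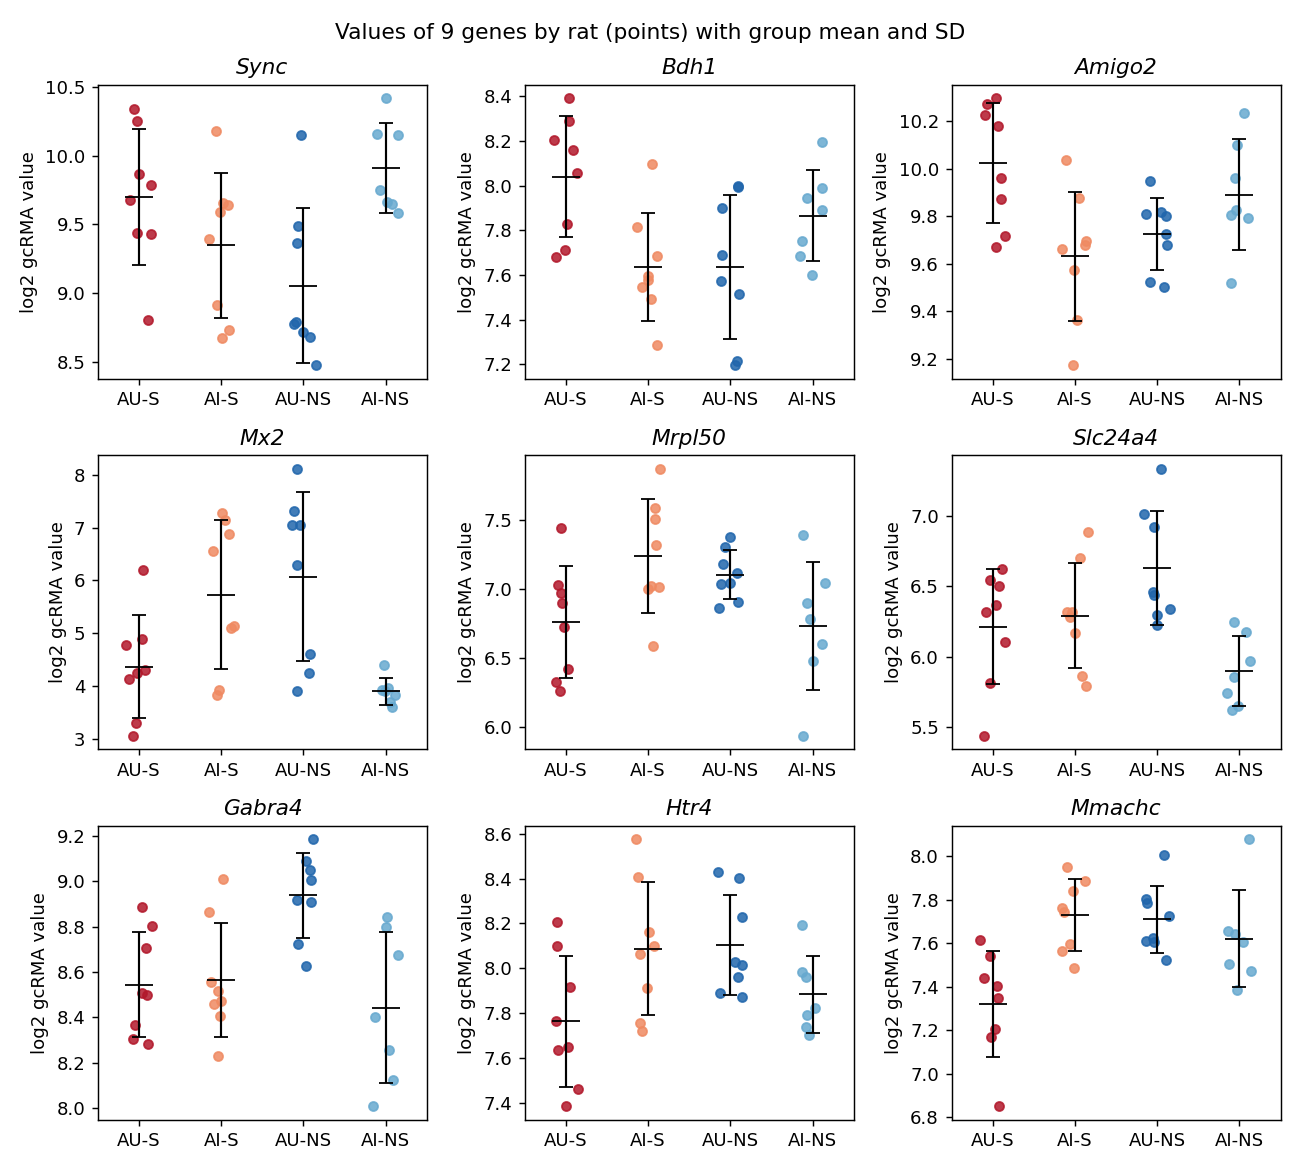
Values of 9 genes on the log2 gcRMA scale (vertical axes, each with its own range), with 1 point per rat, in the 4 groups from AU-S on the left to AI-NS on the right. Black bars are the mean and SD. In Gabra4 and Slc24a4 the mean of AU-NS rats is the highest and that of AI-NS rats the lowest, and in Mmachc the mean of AU-S rats is the lowest.

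Of these 24 genes, 10 have other probesets, 13 in all, and 10 of the 13 had an interaction of the same sign. Probesets of a gene read the same RNA of the same rats, and the genes were picked for a small p there. This favours a shared sign, so the count is a description and no test. At an unadjusted p under 0.05 there were 2, that of Col5a2 with the same sign and that of Mx2 with the opposite sign. Over the whole array, 2394 genes have several probesets. Of these, 11 had 2 or more at an unadjusted p under 0.05, and in all of the 11 but Mx2 the signs were the same. Pyurf had 3 such probesets, at -0.57, -0.58 and -0.30. Cdh13, a cadherin anchored to the membrane by a lipid, had -0.62 (SE 0.27) and -0.55 (SE 0.27). Slc7a1, a transporter of cationic amino acids, had 0.30 (SE 0.11) and 0.27 (SE 0.12), and Rgs17, a regulator of G protein signalling, -0.43 (SE 0.19) and -0.39 (SE 0.18). Pyurf, Cdh13, Slc7a1 and Rgs17 were chosen after their values were seen.

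Promoters were read for the 24 genes as a description, since activity-dependent transcription often runs through the cyclic AMP response element (CRE, TGACGTCA) and clock and other basic helix-loop-helix factors bind the E-box (CACGTG). RefSeq promoters of the GRCr8 assembly, which cover 250 bases before to 50 bases after the gene start, were found for 20 of the 24. The CRE was in 0 of the 20 and in 1.91% of all 27457 promoters of that length, searched on both strands. Its shorter core TGACG, which every CRE also holds, was in 2 (Tafa2 and Xrcc6, 10%), against 22% of all. The E-box was in 2, those of Slc24a4 and Ccdc6 (10%, against 6.65% of all), which had interactions of opposite sign. Both are printed, 5′ to 3′ on the strand of the gene, with the E-box in capitals. That of Slc24a4 is at chr6:127044220-127044519 (plus strand), where the E-box begins 87 bases before the start, and that of Ccdc6 is at chr20:18527178-18527477 (minus strand), where it begins 240 bases before.
Slc24a4: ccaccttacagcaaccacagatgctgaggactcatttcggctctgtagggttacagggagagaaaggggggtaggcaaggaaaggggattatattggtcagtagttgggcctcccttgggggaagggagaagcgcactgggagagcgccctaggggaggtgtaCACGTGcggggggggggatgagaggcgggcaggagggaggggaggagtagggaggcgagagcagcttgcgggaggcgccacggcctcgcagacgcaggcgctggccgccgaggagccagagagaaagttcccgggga
Ccdc6: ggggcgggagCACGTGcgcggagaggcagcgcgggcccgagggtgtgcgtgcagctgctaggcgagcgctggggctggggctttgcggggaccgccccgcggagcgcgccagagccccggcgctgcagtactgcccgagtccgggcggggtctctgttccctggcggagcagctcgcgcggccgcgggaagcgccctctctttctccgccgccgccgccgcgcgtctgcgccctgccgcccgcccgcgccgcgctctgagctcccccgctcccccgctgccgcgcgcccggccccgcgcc

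The largest estimates came with large errors. Cnih2, an auxiliary subunit of AMPA receptors, had an interaction of -2.57 (SE 1.86, 95% interval -6.37 to 1.23). The lowest, median and highest values were 2.96, 12.93 and 13.81 in AU-S rats, 10.99, 13.03 and 13.83 in AI-S rats, 11.84, 13.11 and 13.82 in AU-NS rats, and 2.35, 12.57 and 13.89 in AI-NS rats, so that a single AU-S array and a single AI-NS array stood far below all others. Without the AI-NS array numbered 8 the interaction was -1.04. Sgcb, a subunit of the sarcoglycan complex, had 2.03 (SE 1.94), Vof16 1.32 (SE 0.65), Sppl2a, an intramembrane protease, 1.27 (SE 0.62), and RT1-N2, an MHC class I gene, -1.56 (SE 1.04). Sgcb was spread over 2.97 to 13.01 in AU-S rats alone, and its interaction was 1.27 without the AU-NS array numbered 8 and 3.69 with dentate and CA1 marker means as covariates. The brighter probesets of Sgcb had 0.59 (SE 0.40) and 0.41 (SE 0.28). Vof16 was at 0.83 with the same covariates. The other 3 probesets of Sppl2a were negative, between -0.84 and -0.19. Of the 31 values at the probeset given, 4 of Sgcb, 4 of RT1-N2, 2 of Cnih2 and 1 of Sppl2a were under 4 log2 units.

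The fit of the 4 groups called 869 probesets (5.36%) between AU and AI rats over both tasks at an adjusted p under 0.05, 787 higher (4.86%) and 82 lower (0.506%) in AU rats. With a covariate for RNA length (the 3′ minus 5′ difference of control transcripts), limma called 0 of them (1745 and 1184 of all probesets had an unadjusted p under 0.05 with the 2 control measures tried). The question for the 869 was whether the difference was of the same size after either task. In the 787, the median AU minus AI difference was 0.26 after S training and 0.29 after NS training, and the median interaction was -0.03 against -0.0034 in all probesets. The interaction had an unadjusted p under 0.05 in 12 of the 787 (1.52%, against 2.44% of all probesets), 2 positive and 10 negative. In the 82, the median difference was -0.31 after S training and -0.22 after NS training, the median interaction was -0.07, and 5 (6.1%, against the same 2.44%) had an unadjusted p under 0.05, 1 positive and 4 negative. None of the 869 passed the threshold for the interaction in limma.

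The probesets were called on the mean of both differences, which by itself favours a common sign. The interaction had an unadjusted p under 0.05 in 1.96% of the 869, against 2.44% of all probesets. The genes that follow are some of those with a small p, and none passed the threshold. Rab15, a small GTPase of endosomes, had an AU minus AI difference of 0.33 (SE 0.13) after S training and 0.75 (SE 0.13) after NS training, with an interaction of -0.42 (SE 0.18), while its brightest probeset had 0.10 (SE 0.11). Mcam, an adhesion molecule, had 0.27 (SE 0.23) and 1.09 (SE 0.23), with an interaction of -0.82 (SE 0.32). Gfra1, a receptor for GDNF, had 0.11 (SE 0.09) and 0.46 (SE 0.10), with an interaction of -0.35 (SE 0.13). Cd2bp2, a component of the U5 snRNP, went the other way with 0.65 (SE 0.09) and 0.29 (SE 0.10), with an interaction of 0.36 (SE 0.14), and its brighter probeset had 0.17 (SE 0.07). Rab15, Mcam, Gfra1 and Cd2bp2 were chosen after their values were seen, from the called probesets with a small interaction p, and all are of the 787 higher in AU rats. Ralyl, also higher in AU rats, had a smaller p than these, with -0.21 (SE 0.08). Of the 82 lower in AU rats, Fam210b had 0.24 (SE 0.09), Elp4 -0.26 (SE 0.10) and Mettl15 -0.36 (SE 0.16).

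**Figure D3:**
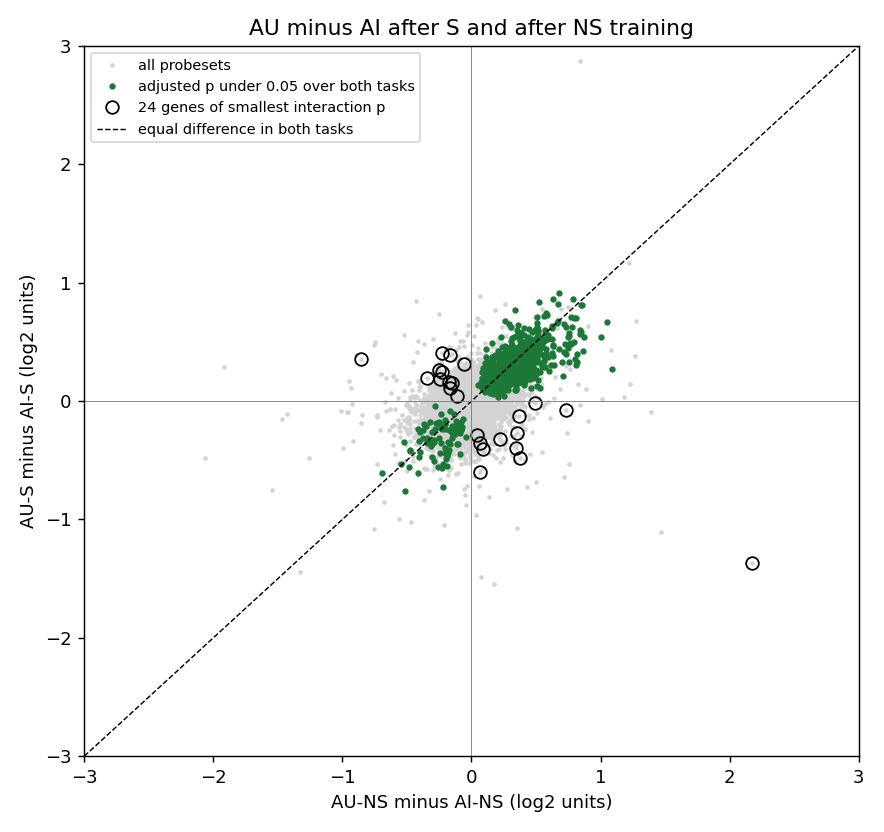
AU-S minus AI-S (vertical axis) against AU-NS minus AI-NS (horizontal axis), in log2 units, with 1 point per probeset. Green points are the 869 called over both tasks, circles are the 24 genes with the smallest interaction p, and the dashed line marks an equal difference after both tasks. Green points follow the line, and most circles lie where the differences have opposite signs.

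The 3′ minus 5′ difference of control transcripts, a measure of RNA breakage, was lower in AU than in AI rats after both tasks, with a small interaction. The array reads the 3′ and the 5′ end of a few control transcripts separately, and RNA that is broken loses signal at the 5′ end and so has a larger difference between the ends. Averaged over Gapdh and beta-actin, 3′ minus 5′ was 1.48 ± 0.10 (SD, n = 8) in AU-S rats, 1.59 ± 0.10 (n = 8) in AI-S rats, 1.42 ± 0.09 (n = 8) in AU-NS rats and 1.60 ± 0.16 (n = 7) in AI-NS rats. The interaction was 0.07 (two-sided exact permutation of the tasks within each phenotype, p = 0.404). For hexokinase the group means were 1.42, 1.81, 1.41 and 1.77 in the same order, with an interaction of -0.03 (exact permutation, p = 0.84). With the Gapdh and beta-actin difference as a covariate limma called 0 probesets for the interaction (382 at an unadjusted p under 0.05) and 0 over both tasks (1745), and with hexokinase 0 (436) and 0 (1184).

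Interactions were also described for 50 gene lists, with 1110 distinct genes, each at its brightest probeset. No gene of any list passed the threshold. An unadjusted p under 0.05 was found in 11 list genes with a positive and 13 with a negative interaction (2.16%), against 2.50% of all 9037 genes, and 33 lists held none. The list medians ran between -0.37 for dentate granule cell markers and 0.18 for CA1 markers, and 33 lists had a median within 0.05 of 0. The median over all genes at the brightest probeset was -0.01.

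**Figure D4:**
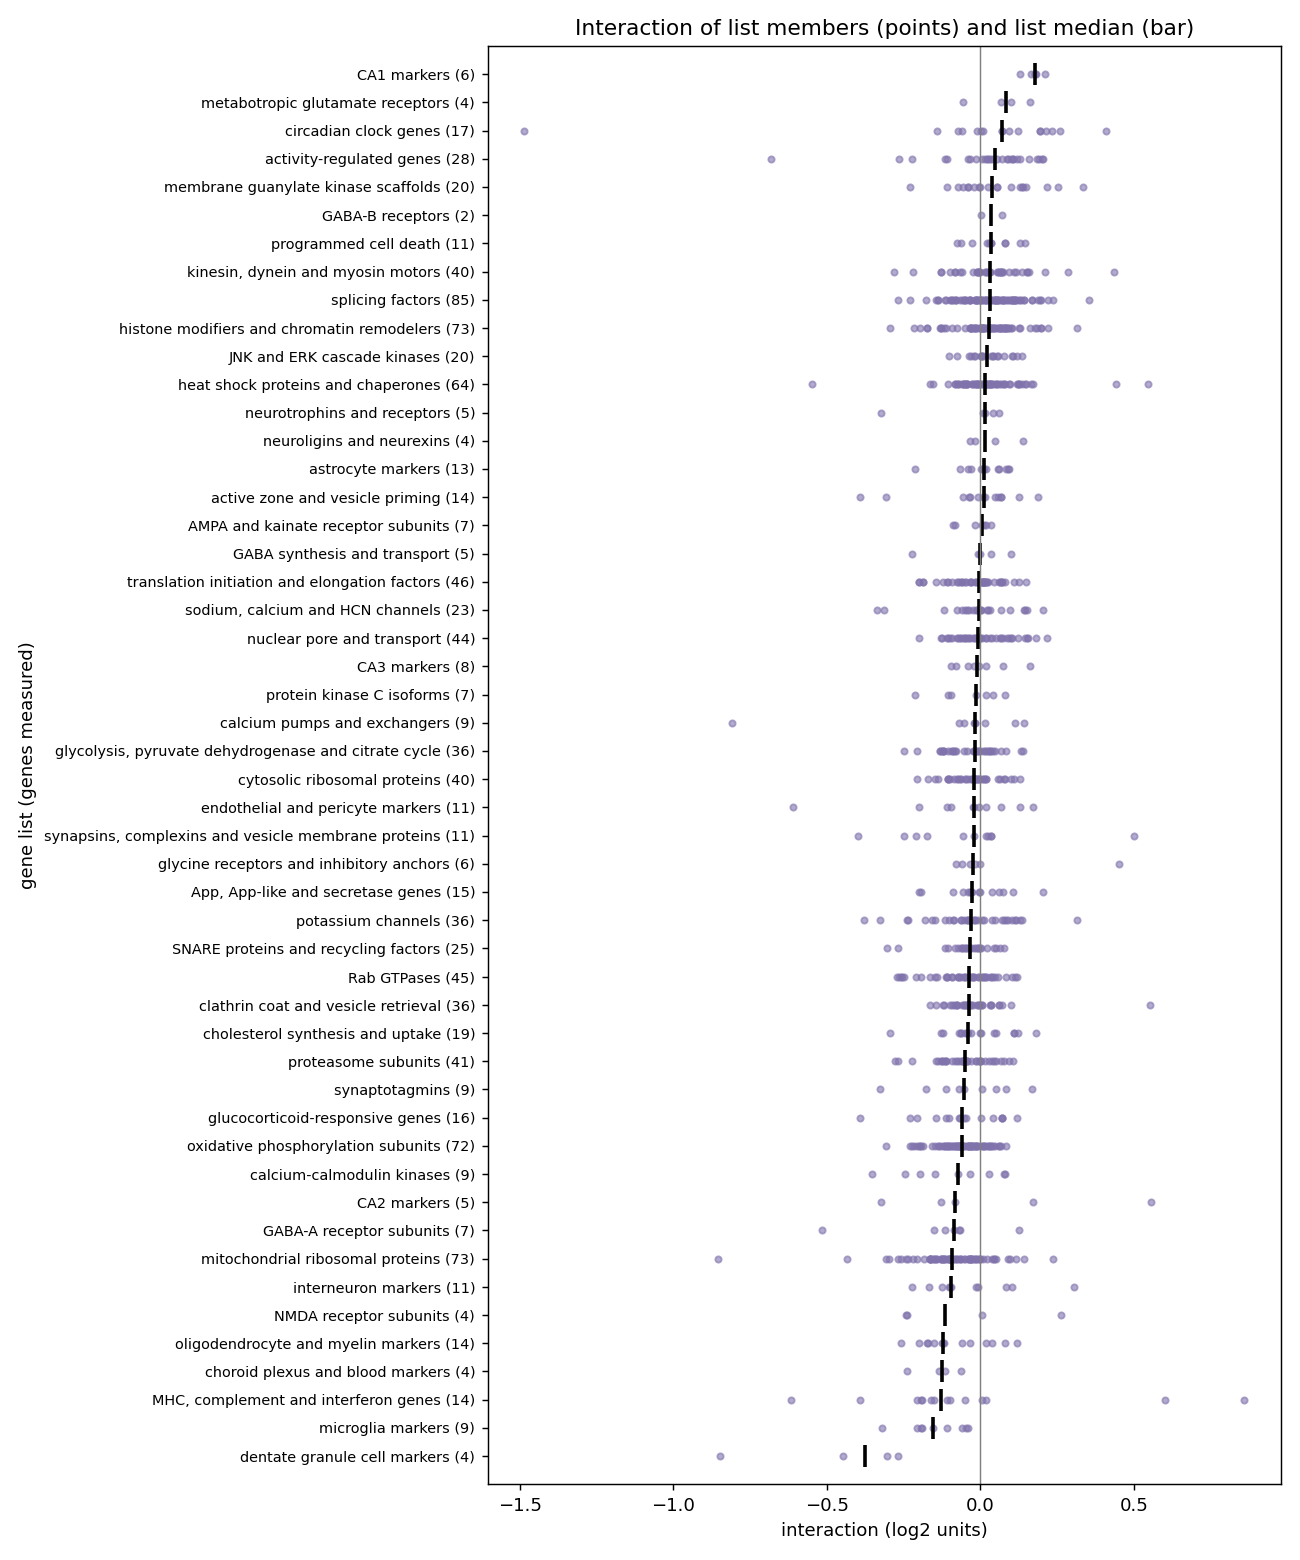
Interaction of the members of 50 gene lists (points, 1 per gene at its brightest probeset) and the list median (bar), in log2 units, with lists in order of the median. The number of genes measured is in parentheses. Most medians lie close to 0, and the dentate granule cell markers lie farthest from it.

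Receptors and enzymes of inhibitory transmission mostly had small estimates, and Gabra4 had the largest. The 6 glycine receptors and inhibitory anchors had a median of -0.02. Only Glra2, a glycine receptor subunit, was positive among them, at 0.45 (SE 0.26). Among 7 GABA-A receptor subunits the median was -0.09 and 1 was positive. Gabra5, the alpha 5 subunit enriched in the hippocampus, had -0.07 (SE 0.06, 95% interval -0.20 to 0.06), Gabrg1, a gamma subunit, had 0.12 (SE 0.16), and Gabrd, the delta subunit of receptors outside synapses, had -0.12 (SE 0.06). For Gabrg1 the AU minus AI difference was 0.41 after S training and 0.28 after NS training. The GABA-B receptor subunits Gabbr1 and Gabbr2 had 0.00 (SE 0.11) and 0.07 (SE 0.14). The dimmer probesets of Gabbr1 had 0.05 (SE 0.22) and -0.05 (SE 0.83). At the latter, AU minus AI was 1.17 after S and 1.22 after NS training. The dimmer probeset of Gabbr2 had -0.06 (SE 0.17), with differences of 0.34 and 0.41. Gad1 and Gad2, which encode the enzymes that make GABA, had -0.01 (SE 0.11) and -0.22 (SE 0.28), and the AU minus AI difference of Gad2 was 0.37 after S training and 0.59 after NS training. The dimmer probeset of Gad1 had -0.16 (SE 0.22), with differences of 0.47 after S and 0.63 after NS training.

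The AMPA and kainate receptor subunits, which carry fast glutamate transmission, were close to 0. The 7 AMPA and kainate receptor subunits had a median of 0.00 and ran between -0.09 and 0.03, and the 95% intervals of all 7 lay within 1.5-fold. Gria2, the subunit that keeps most AMPA receptors from passing calcium, had -0.08 (SE 0.07) and, at its dimmer probeset, 0.16 (SE 0.09), and Grik4, a kainate receptor subunit that marks CA3, had 0.02 (SE 0.12). The 4 NMDA receptor subunits had a median of -0.12 and were less closely bounded, with the 95% interval of 1 of them within 1.5-fold. Grin1, the obligatory subunit, had 0.00 (SE 0.11), Grin2a had -0.24 (SE 0.20), Grin2b had -0.24 (SE 0.32) and Grin2c had 0.26 (SE 0.17). The 4 metabotropic glutamate receptors had a median of 0.08, and 3 were positive.

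Most other synaptic and signalling genes that the study names for these arrays had narrow intervals around 0 at their brightest probeset. App, the amyloid precursor protein, had 0.06 (SE 0.05, 95% interval -0.05 to 0.17), Snap25, a SNARE protein of vesicle fusion, had 0.02 (SE 0.05), Ntrk2, the BDNF receptor, had 0.06 (SE 0.08), Nptn, a synaptic adhesion protein, had -0.03 (SE 0.06) and Rdx, a linker of membrane and actin, had -0.00 (SE 0.10), with its dimmer probesets between -0.26 and 0.27. At the brightest probeset of App, AU minus AI was itself small, at 0.09 after S training and 0.02 after NS training. Its dimmer probesets had interactions of 0.01 (SE 0.07) and -0.09 (SE 0.14). At the latter, AU minus AI was 0.36 after S and 0.46 after NS training. At the brightest probesets of Snap25, Nptn, Ntrk2 and Rdx, AU minus AI also lay between -0.04 and 0.08 after either task, so there was little difference to compare. At the dimmer probesets of Rdx, from brighter to dimmer, it was 0.11, 0.32, 0.19 and -0.05 after S training. After NS training it was 0.22, 0.54, 0.45 and -0.32 in the same order. The dimmer probesets of Ntrk2 had interactions between -0.07 and 0.06. At the dimmest, AU minus AI was 0.21 after S and 0.25 after NS training. Adam10, the main alpha-secretase, was bounded less closely, with 0.10 (SE 0.30) and, at its dimmer probeset, -0.27 (SE 0.42), and at the brighter one AU minus AI was 0.40 after S training and 0.29 after NS training. The 25 SNARE proteins and recycling factors had a median of -0.03, and the 14 genes of the active zone 0.01. Syn2, a synapsin that tethers vesicles, had -0.25 (SE 0.12), and Dlgap1 and Shank1, scaffolds of the postsynaptic density, had 0.33 (SE 0.14) and 0.25 (SE 0.12). The 3 other probesets of Dlgap1 were at -0.00 (SE 0.08), -0.08 (SE 0.08) and -0.27 (SE 0.15), and those of Syn2 at -0.15 (SE 0.08) and -0.12 (SE 0.13).

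Among activity-regulated genes, Dusp1 was the only one with an unadjusted interaction p under 0.05 in limma. Of 28 measured, 20 had a positive interaction, and the median was 0.05. Among all 9037 genes at the brightest probeset, 4266 were positive and 2.50% had an unadjusted p under 0.05. A single gene of 28 is thus close to the share of all genes, and Dusp1 is given as a description. Fos had 0.02, Arc 0.21, Egr1 0.20, Junb 0.19, Nr4a1 0.11 and Bdnf 0.02. Dusp1, a phosphatase that switches off MAP kinases, had 7.65, 8.96 and 9.35 (lowest, median and highest) in AU-S rats, 9.09, 9.55 and 10.11 in AI-S rats, 8.32, 9.33 and 9.54 in AU-NS rats, and 8.54, 9.40 and 9.75 in AI-NS rats. AU-S rats were low, with 0 of 8 above the AI-S mean, and the groups trained on NS overlapped over most of their range. The interaction was -0.68 (SE 0.32, unadjusted p = 0.0385, limma), and -0.37 (SE 0.17) at the dimmer probeset of Dusp1. The 16 glucocorticoid-responsive genes had a median of -0.06.

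Some lists of the cell's basic machinery leaned to one sign, with small estimates. Of 73 mitochondrial ribosomal proteins 12 had a positive interaction, with a median of -0.09 and a lowest member, Mrpl50, at -0.85. Of 72 oxidative phosphorylation subunits 16 were positive (median -0.06), and of 41 proteasome subunits 10 were positive (median -0.05). Among all 9037 genes 4266 were positive. Splicing factors lay the other way, with 52 of 85 positive and a median of 0.03. All 5 splicing factors at an unadjusted p under 0.05 were positive, Cd2bp2 (0.17, SE 0.07), Rbm17 (0.19, SE 0.08), Hnrnpa2b1 (0.19, SE 0.09), Rbm19 (0.20, SE 0.09) and Rbm4b (0.35, SE 0.16). Of all 9037 genes, 2.50% were under that p, 106 positive and 120 negative. Genes of a list are measured in the same rats and are not independent.

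The most extreme list medians were those of markers of neighbouring subfields. Of the 4 dentate granule cell markers all were negative. Prox1, the transcription factor that defines granule cells, had 7.77, 8.50 and 9.25 in AU-S rats, 7.99, 8.96 and 9.68 in AI-S rats, 8.32, 8.70 and 9.25 in AU-NS rats, and 7.63, 8.20 and 9.47 in AI-NS rats, and the groups overlapped. Its interaction was -0.85 (SE 0.32), and that of Calb1, a calcium-binding protein of granule cells, was -0.45 (SE 0.18). Stxbp6 had -0.30 (SE 0.19) and Trpc6 -0.27 (SE 0.28). The mean of the 4 markers was 9.37 ± 0.28 (SD, n = 8) in AU-S rats, 9.65 ± 0.34 (n = 8) in AI-S rats, 9.47 ± 0.12 (n = 8) in AU-NS rats and 9.29 ± 0.35 (n = 7) in AI-NS rats.

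The 6 CA1 markers were all positive, between 0.13 for Fibcd1 and 0.21 for Mpped1, none with an unadjusted p under 0.05 in limma. Their mean was 9.91 ± 0.24 (SD, n = 8) in AU-S rats, 9.93 ± 0.18 (n = 8) in AI-S rats, 9.78 ± 0.53 (n = 8) in AU-NS rats and 9.97 ± 0.39 (n = 7) in AI-NS rats. The CA3 markers, which the dissection aimed at, were bright in all groups, with Nrip3, for example, averaging 13.33 in AU-S rats, 13.24 in AI-S rats, 13.29 in AU-NS rats and 13.28 in AI-NS rats, and their median interaction was -0.01 over 8 genes.

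**Figure D5:**
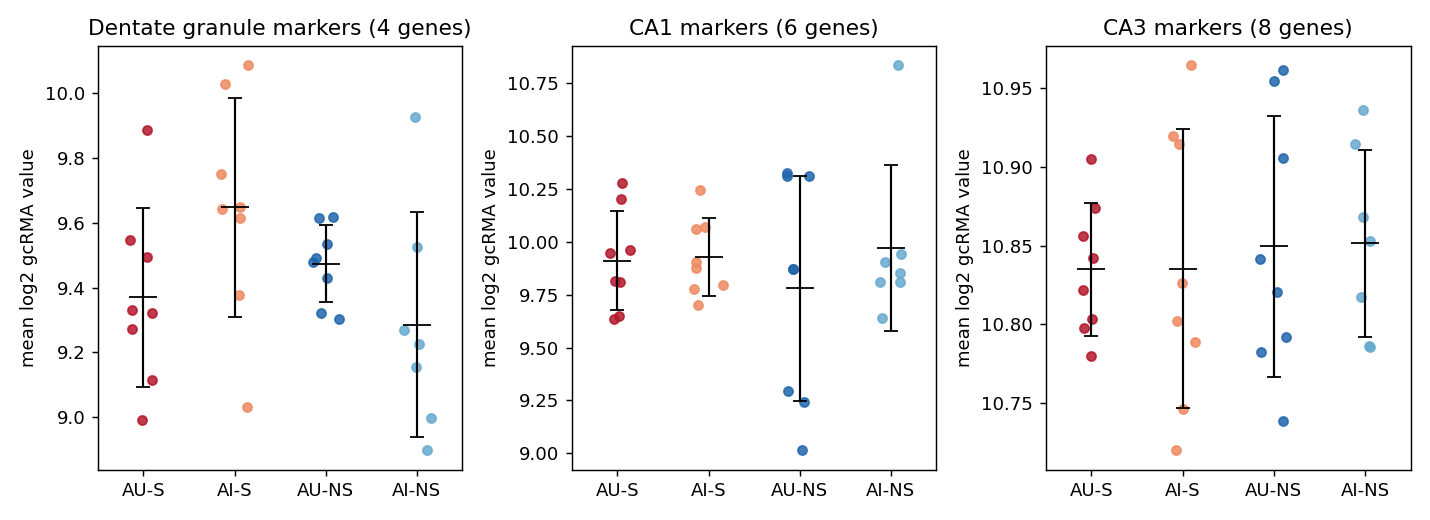
Mean log2 gcRMA value of the dentate granule cell, CA1 and CA3 markers (vertical axes, each with its own range), with 1 point per rat, in the 4 groups from AU-S on the left to AI-NS on the right. Black bars are the mean and SD of each group. The dentate marker mean is highest in AI-S rats and lowest in AI-NS rats.

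With the dentate and CA1 marker means as covariates, limma called 0 probesets for the interaction, and 296 had an unadjusted p under 0.05, of which 179 were among the 396. All 396 kept their sign, which their choice by a small p in the same arrays favours. Of the 24 genes, 22 kept an unadjusted p under 0.05. The exceptions were Htr4, at -0.36 (unadjusted p = 0.0576, limma) against -0.54 without the covariates, and Tafa2, at -0.35 (unadjusted p = 0.0864, limma) against -0.63. Amigo2 was at 0.42, Slc24a4 at -0.66, Gabra4 at -0.43, Mrpl50 at -0.88 and Sync at 1.22. Prox1, which is itself part of the covariate, was at -0.09.

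Among other cell types, the 9 microglia markers were all negative with a median of -0.15. P2ry12, a purine receptor of resting microglia, had the smallest p of them, with -0.32 (SE 0.22). The mean over the 9 was 9.22 ± 0.17 (SD, n = 8) in AU-S rats, 9.41 ± 0.31 (n = 8) in AI-S rats, 9.17 ± 0.20 (n = 8) in AU-NS rats and 9.21 ± 0.33 (n = 7) in AI-NS rats, with overlapping ranges. The 14 MHC, complement and interferon genes had a median of -0.13 and a wide spread, with Ifitm3, an interferon-induced membrane protein, at -0.62 (SE 0.31). Mx1, a relative of Mx2, had 0.02 (SE 0.60). The 14 oligodendrocyte markers had a median of -0.12, the 13 astrocyte markers 0.01 and the 11 interneuron markers -0.10. Their part in the values of other genes was not tested.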

How the data were processed

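CA3 RNA of 31 aged rats was hybridised to Affymetrix rat arrays, 1 per rat. The deposited series matrix holds log2 values that the authors made with gcRMA (background correction, quantile normalization and probe summary), and its version is not given in the sources used here. No probeset had a mean under 5.00, and 1 AI-NS array was left out by the authors. Array medians lay between 8.97 and 9.14, and the highest correlation between any 2 arrays was 0.993. The precision is limited by the number of arrays. Hybridization batches were not analysed here, so their part in the interaction was not checked.

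A model of the 4 group means was fitted per probeset (limma 3.58.1 under R 4.3.3, with lmFit and then eBayes). Two-sided p-values were adjusted by Benjamini-Hochberg over the 16204 probesets, with thresholds of 0.1 for the interaction and 0.05 over both tasks. The SAM statistic was coded by hand. The script was tested on simulated data. Of the probesets, 293 with several genes and 3669 with none named were tested but not named. Named genes are the 12 of smallest interaction p in each direction, the 3 largest estimates in each direction, the member of smallest p in each list, and genes the study names. Members and lists were chosen with earlier results of these data known. Alternatives were other priors, scalings, weights, covariates and filters, the replicate number as a block, and each array left out in turn. Figures were drawn with Python 3.11.15 and matplotlib 3.10.9.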

Additional observations from a re-analysis of the deposited data

Results flagged for a closer look

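Of 168 groups of samples over 42 values, 20 held an array that stood apart from the rest of its group in Dixon's test, and chance alone marks about 1 group in 20. Cnih2 had the widest gaps, with 1 AU-S array at 2.96, where the nearest of the group was at 12.36, and 1 AI-NS array at 2.35, where the nearest was at 12.31. Sppl2a had 1 AU-S array at 5.12, and Vof16 1 AU-S array at 7.08 and 1 AI-S array at 7.59.

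Among genes of smallest interaction p, Tyw1 had 1 AU-S array at 6.06 and 1 AU-NS array at 4.67, Ptprn2 1 AU-S array at 11.92 and 1 AU-NS array at 11.57, and Ext1 1 AU-S array at 4.41 and 1 AU-NS array at 6.47. Col5a2 had 1 AI-S array at 9.31 and 1 AU-NS array at 9.90, Cebpa 1 AU-NS array at 8.00, and Mmachc 1 AI-NS array at 8.08. Among genes the study names, Ntrk2 had 1 AU-S array at 13.26, Gad2 1 AI-S array at 7.90 and Rdx 1 AI-NS array at 11.32. The 3′ minus 5′ difference of the control probesets was 1.72 in 1 AU-S array and 1.92 in 1 AI-NS array.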

How the results depend on the processing

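No probeset was called for the interaction by limma in any alternative, with each of the 31 arrays left out included, where the smallest adjusted p was 0.5450. SAM called 1, the dimmer probeset of Mx2. The number at an unadjusted p under 0.05 (396) was 662 with array weights and 236 with only the brightest probeset of each gene, where 9037 were tested, and it ran between 320 (without AI-NS array 4) and 724 (without AI-NS array 3). The share within 1.5-fold stayed between 83.2% and 89.9%. Among probesets called over both tasks, the share at an unadjusted interaction p under 0.05 (1.96%) was 0.918% with dentate and CA1 covariates and ran between 1.40% (without AU-NS array 3) and 4.93% (without AI-NS array 3). With a covariate for either RNA control none was called over both tasks, so no share was had. The cause of these changes was not tested.

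Most same-numbered arrays of different groups did not deviate together (45 pairs, 7 with a correlation over 0.1). Single genes could still have close values by number. Cnih2 lay between 13.80 and 13.89 in all arrays numbered 7 and between 13.38 and 13.56 in those numbered 4. In those numbered 6 it ran between 2.96 and 13.83. Vof16 lay between 5.29 and 5.38 in all arrays numbered 3. In those numbered 8 it was 4.57 in AU-S, 4.54 in AI-S and 4.53 in AU-NS, but 7.11 in AI-NS. Those numbered 5 (5.37, 5.40, 5.38 and 7.06, in the same order) and 6 (4.78, 4.80, 4.82 and 6.17) were alike in this. The arrays numbered 7 were not, at 7.08, 4.85, 4.76 and 7.34. Whether the numbers mark rats handled together was not tested. With the replicate block, 0 were called and 303 had an unadjusted p under 0.05, 570 in place of 869 were called over both tasks, Gabbr1 was at -0.0018 and Rdx at 0.0179.

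Genes near 0 changed sign. With array weights Gabbr2 was at -0.0092, Gabbr1 at -0.0076 and Gad1 at 0.0232, and with the dentate and CA1 covariates Adam10 was at -0.0799 and Gabbr1 at -0.0561. Gabbr1 was at -0.0109 with the Gapdh and beta-actin covariate, and Rdx at 0.0021 after quantile normalization and 0.0032 with hexokinase as a covariate. With arrays left out, Adam10 ran between -0.0561 and 0.2791, Gabbr1 between -0.0455 and 0.0451, Gad1 between -0.0582 and 0.0320, and Rdx between -0.0495 and 0.0274. Hexokinase alone gave -0.0331 for the interaction in the control probesets. The 24 genes of smallest p kept their sign in all 40 settings that kept every probeset. They were picked for a small p in these same arrays, which favours a kept sign, so this is no test of them. Of the 50 list medians, 24 kept their sign in all 41 settings. The medians of protein kinase C isoforms (-0.081), dentate granule cell markers (-0.0039) and CA2 markers (0.124) moved with the dentate and CA1 covariates. The dentate covariate is the mean of those same dentate markers, so the move of their median toward 0 follows from the fit.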
